A study of Mus musculus with 27 samples.

Results

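Interferon-stimulated genes were followed in mouse B cells that had been activated through CD40 in the presence or absence of IL-4 and IL-21. The list holds 47 genes that are known interferon targets. They were chosen by name, with earlier results of these data known. All 47 were found among the 35604 genes of the deposited table. They were described in 6 role groups: 21 antiviral effectors and related genes (IFIT/OAS type), 9 guanylate-binding proteins and immunity-related GTPases (GBP/IRG type), 3 interferon regulatory factors, 5 nucleic acid sensors including the double-stranded RNA kinase, 6 PARP, nuclear and restriction factors, and 3 Schlafens. Splenic primary B cells of wild-type mice were left uncultured (naive, 0 h) or were cultured for 6 h or 24 h with an antibody that engages CD40 (clone HM40-3, 1 µg/mL). The antibody was given alone, with IL-4 (12.5 ng/mL), with IL-21 (50 ng/mL) or with both cytokines. Every cultured group received the antibody, so no group received a cytokine or culture alone, and a change against naive cells cannot be told apart from the effect of culture. There were 9 groups of 3 libraries, 27 in all, of polyadenylated RNA. No label says that the libraries of a group came from separate animals or cultures, so the p-values measure only how far these samples differ within a group, and that spread may be technical.

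Type I interferons (the alpha family and beta) signal through IFNAR1 and IFNAR2 and act on genes through the interferon-stimulated response element (ISRE), a sequence found before many IFIT and OAS type genes. Type II interferon (gamma) signals through IFNGR1 and IFNGR2, acts through the gamma-activated site (GAS) and induces IRF1, which drives many GBP and IRG genes. Resting lymphocytes hold a low tonic level of these transcripts, and IL-21 and IL-4 signal mainly through STAT3 and STAT6, which are outside the interferon pathway.

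Both DNA elements were searched for in the RefSeq promoter windows (GRCm38.p6), which run from 250 bases before to 50 bases after a transcription start. The search used GAAA, 2 bases of any kind and GAAA again for the ISRE, and TTCNNNGAA for the GAS, on both strands. Windows were found for 38 of the 47 genes, 48 windows in all. The ISRE letters stood in 25 of these 48 windows (52.1%), against 3.44% of all 32851 windows, and the GAS letters in 12 of 48 (25%) against 8.3%. By gene, the ISRE letters were found for 7 of the 8 GBP/IRG type genes with a window, for 9 of 17 IFIT/OAS type genes and for 0 of the 3 interferon regulatory factors. An ISRE and a GAS match overlapped once, in the window of Bst2. A match describes these letters only and is not a bound site. The 6 stretches that follow lie just before the start of genes on which the later results turn, picked after their values were seen. Each is written 5′ to 3′ on the strand of the gene, with ISRE or GAS letters in capitals. Isg15 (chr4:156200819-156201068, minus strand) holds 3 overlapping ISRE matches, and Ifit3 (chr19:34583279-34583528, plus strand) holds 2. Rsad2 (chr12:26456453-26456702, minus strand) holds 1. In Gbp3 (chr3:142559794-142560025, plus strand) 2 matches overlap. Irf1 (chr11:53769764-53770013, plus strand) holds 1 GAS match and no ISRE match, and Slfn2 (chr11:83064862-83065111, plus strand) holds neither.
Isg15: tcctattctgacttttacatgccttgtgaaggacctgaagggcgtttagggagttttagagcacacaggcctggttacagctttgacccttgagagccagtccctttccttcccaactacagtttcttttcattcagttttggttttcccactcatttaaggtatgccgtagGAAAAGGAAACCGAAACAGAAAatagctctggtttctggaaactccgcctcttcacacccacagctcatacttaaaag
Ifit3: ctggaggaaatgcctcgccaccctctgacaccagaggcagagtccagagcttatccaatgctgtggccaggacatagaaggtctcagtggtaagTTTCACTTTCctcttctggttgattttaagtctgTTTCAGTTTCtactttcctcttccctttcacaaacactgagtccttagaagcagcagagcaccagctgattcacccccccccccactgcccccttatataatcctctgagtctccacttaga
Rsad2: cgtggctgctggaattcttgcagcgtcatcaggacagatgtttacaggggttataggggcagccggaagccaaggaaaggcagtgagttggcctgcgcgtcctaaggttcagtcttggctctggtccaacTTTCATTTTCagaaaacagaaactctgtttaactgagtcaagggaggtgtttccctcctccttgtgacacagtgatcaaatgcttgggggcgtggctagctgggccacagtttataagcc
Gbp3: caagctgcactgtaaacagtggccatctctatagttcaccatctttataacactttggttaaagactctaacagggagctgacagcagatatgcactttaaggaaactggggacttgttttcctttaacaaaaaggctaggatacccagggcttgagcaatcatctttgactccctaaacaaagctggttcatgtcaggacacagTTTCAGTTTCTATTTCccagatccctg
Irf1: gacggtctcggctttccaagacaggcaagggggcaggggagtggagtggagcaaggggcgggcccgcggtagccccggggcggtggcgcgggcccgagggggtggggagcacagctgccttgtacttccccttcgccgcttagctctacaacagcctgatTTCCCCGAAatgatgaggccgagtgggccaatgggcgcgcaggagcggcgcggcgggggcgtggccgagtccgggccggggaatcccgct
Slfn2: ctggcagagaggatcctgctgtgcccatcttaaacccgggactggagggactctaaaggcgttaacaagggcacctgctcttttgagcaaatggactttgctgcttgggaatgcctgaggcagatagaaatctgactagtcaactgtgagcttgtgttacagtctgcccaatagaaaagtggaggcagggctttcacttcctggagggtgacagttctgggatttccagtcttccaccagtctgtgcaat

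Levels are given in TPM, an abundance scaled for transcript length and for the library's total, so that genes can be compared with each other. The listed values of a library summed to 766384 to 825365, and TPM keeps no sequencing depth. Changes are differences of log2(TPM + 1) ± standard error from a limma fit over all 27 libraries, and a gene was called at a Benjamini-Hochberg adjusted p below 0.05 over all 12147 genes tested. A gene was tested if it reached 1 TPM in at least 3 libraries, which 41 of the 47 did. Ifi44, Oas2, Usp18, Gbp7, Ifih1 and Dtx3l did not, and 4 of the 18 tested IFIT/OAS type genes (Ifit3b, Oas3, Oasl2 and Rsad2) passed only through the naive libraries, so that a fall from naive cells was built into their selection. Counts and medians against naive cells are therefore given for the 37 genes that pass on stimulated libraries alone. The cytokine comparisons count all 41, though those 4 genes were low in stimulated cells and had little room to fall there. Over the 37, the numbers of genes called in these comparisons were the same, but for 9 instead of 10 lower with IL-21 at 6 h. Markers of B cells (8 of 8 detected in every group) summed to 570 to 5970 TPM, with the lowest sums after 6 h with IL-21 and no IL-4. Naive libraries also held erythroid and platelet markers (881 to 1516 TPM, against 8.55 to 203 in stimulated libraries) and macrophage and monocyte markers (69.5 to 98.6 TPM, against 0.677 to 12.1). In naive replicate 1 the mitochondrial share was 5.50% (12.7% and 13.5% in the other naive libraries). Replicate 1 of anti-CD40 with IL-4 at 24 h had 7.89% (11.6% and 11.0% in the others), and correlations between libraries were lowest in that group (0.927). Counts are therefore also given without these 2 libraries, a setting chosen after seeing the data.

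**Figure D1:**
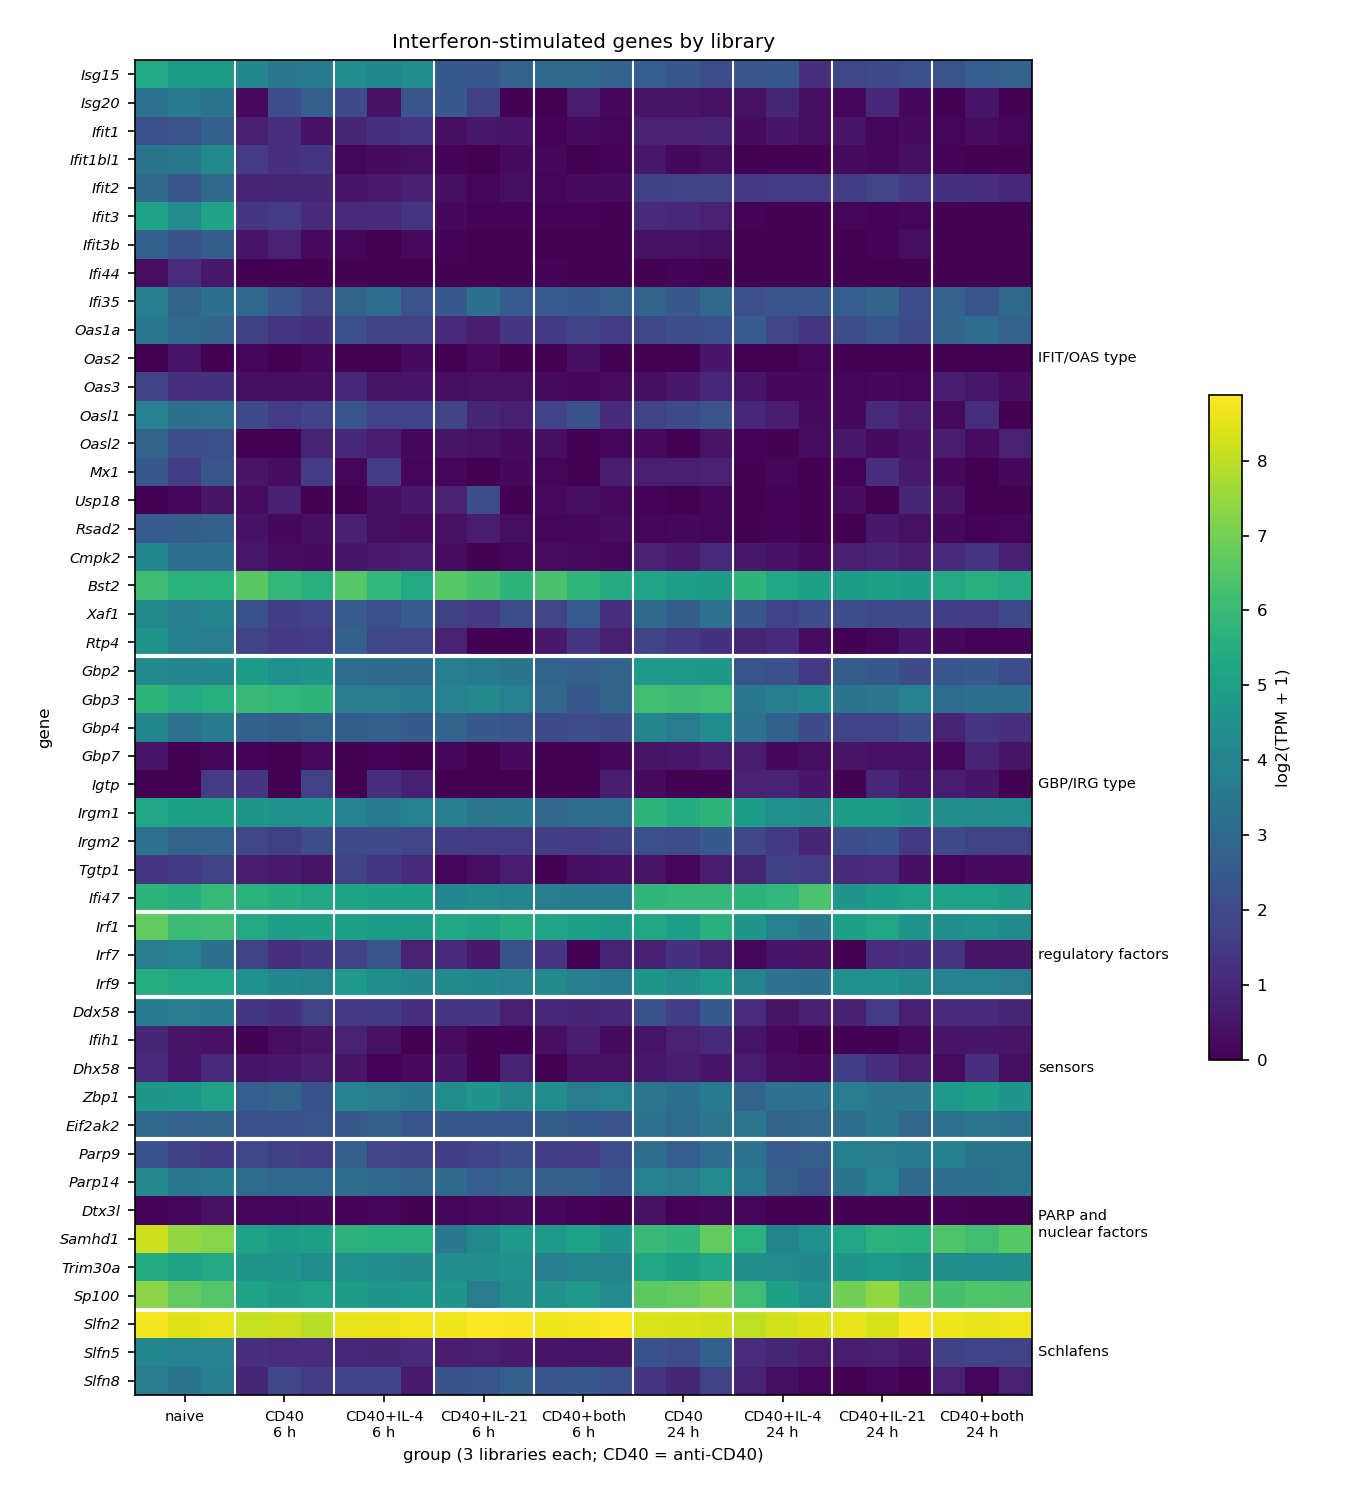
Heat map of log2(TPM + 1) for the 47 genes (rows, by role group) in the 27 libraries (columns, by group). Most IFIT/OAS type rows are brightest in the 3 naive columns, while Gbp3 and Irgm1 are brightest in the 24 h columns with anti-CD40 alone.

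The highest group mean was in naive cells for 29 of the 47 genes. By role group, this held for 18 of 21 IFIT/OAS type genes and for 3 of 3 interferon regulatory factors, but for 2 of 9 GBP/IRG type genes. For 5 of 9 GBP/IRG type genes (Gbp2, Gbp3, Gbp4, Gbp7 and Irgm1) it was in the 24 h group with anti-CD40 alone. The share of all genes that peaked in each group was not computed, so these counts only describe the list. They include Ifit3b, Oas3, Oasl2 and Rsad2, which passed the filter only through naive libraries. Ifi44 (highest mean 0.633 TPM) and Gbp7 (0.495 TPM), which were not tested, are included too. Levels spanned a wide range. Slfn2, a Schlafen needed for lymphocyte quiescence, was the most abundant, at 249 to 468 TPM over the libraries, and its group means ran from 268 TPM (6 h, anti-CD40) to 438 TPM (6 h, anti-CD40 with IL-21). Samhd1, a nucleotide hydrolase that restricts reverse transcription, had a mean of 205 TPM in naive cells. At the other end, Oas2, Ifi44, Gbp7, Ifih1 and Dtx3l had means under 1 TPM in all 9 groups, and Usp18, the enzyme that removes ISG15 from proteins and dampens interferon receptor signalling, had 0, 0.107 and 0.387 TPM in naive cells. Its highest group mean was 1.33 TPM (6 h, anti-CD40 with IL-21), which came from 1 library with 3.23 TPM beside 0.742 and 0 in the others.

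The first question was what happened to these genes when naive cells were placed in culture with anti-CD40. After 6 h most of them had fallen: 30 of the 37 were lower than in naive cells, 1 was higher (Gbp2) and 6 were not called, with a median change of -1.26 against 0.06 for all genes. Of all genes tested, 29.9% were called (16.6% higher, 13.3% lower). With the 4 genes that passed only through naive libraries, 34 of 41 were lower and 1 was higher. The alternatives that follow start from these 41. The counts were 31 lower and 2 higher without the 2 libraries of low mitochondrial share. In that setting the filter was applied again, and Ifit3b and Rsad2 no longer passed it and were not tested. After rescaling by median ratios, 34 were lower and 0 higher, and the share of higher calls among all called genes went from 55.5% to 44.8%. Because these are bulk samples, fewer cells of a type and less RNA per cell cannot be told apart. The part in these changes of the erythroid and macrophage transcripts that were high in naive libraries was not tested.

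Of the 14 IFIT/OAS type genes that pass on stimulated libraries alone, 13 were lower at 6 h (median change -1.75) and 13 at 24 h (median -1.54). Ifit3, an adaptor in the IFIT complex that binds foreign RNA, had 33.9, 18.6 and 33.5 TPM in naive cells, 1.66, 1.94 and 1.07 TPM after 6 h and 1.11, 0.968 and 0.763 TPM after 24 h. The groups did not overlap, and the differences were -3.50 ± 0.19 at 6 h (limma, adjusted p = 4.53e-12) and -3.89 ± 0.19 at 24 h (adjusted p = 9.88e-13). Cmpk2, a mitochondrial nucleotide kinase that neighbours Rsad2 in the genome, had 16.2, 8.71 and 8.73 TPM in naive cells and 0.489, 0.236 and 0.211 TPM after 6 h, a difference of -3.17 ± 0.20. Rsad2 itself, which encodes viperin, had 4.86, 5.11 and 5.80 TPM in naive cells and 0.350, 0.151 and 0.290 TPM after 6 h. It was tested only through its naive level, so these values are a description. Rtp4, an antiviral chaperone, went from 22.9, 13.3 and 12.5 TPM to 2.54, 1.78 and 1.89 TPM at 6 h, a difference of -2.45 ± 0.30. In Ifit3, Cmpk2 and Rtp4, which are given for their large falls, the lowest naive library was above the highest library with anti-CD40 alone. The share of all genes without such overlap was not computed.

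Isg15, the ubiquitin-like modifier, fell in steps. It had 41.4, 27.6 and 27.5 TPM in naive cells, 16.1, 10.7 and 11.6 TPM at 6 h and 5.25, 4.36 and 3.35 TPM at 24 h. The differences from naive were -1.26 ± 0.26 and -2.63 ± 0.26, and none of the 3 groups overlapped. Oasl2, a ubiquitin-like relative of the oligoadenylate synthetases, had 6.29, 3.43 and 3.49 TPM in naive cells against 0.0123, 0 and 0.828 TPM at 6 h, and its values too are a description, since it was tested only through its naive level. Mx1, a dynamin-like antiviral GTPase, had 4.44, 2.07 and 3.91 TPM in naive cells and 0.375, 0.240 and 1.9 TPM at 6 h, a difference of -1.35 ± 0.35 that was no longer called with a pseudocount of 0.1 or with only the compared groups in the fit. Xaf1, a pro-apoptotic interferon target, fell from 17.1, 13.0 and 14.9 TPM to 3.73, 2.12 and 2.45 TPM at 6 h and stood at 7.47, 5.08 and 9.07 TPM at 24 h. The exception at 6 h was Bst2 (tetherin, which holds budding virions to the cell), with 67.8, 49.5 and 50.4 TPM in naive cells and 96.6, 58.9 and 48.4 TPM at 6 h, overlapping groups that differed by 0.23 ± 0.29 (adjusted p = 0.609). At 24 h Bst2 was lower, at 35.4, 29.5 and 28.4 TPM (-0.82 ± 0.29, limma, adjusted p = 0.0371), and leaving out any 1 of these 6 libraries ended the call.

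The other IFIT/OAS type genes called lower at 6 h were Ifit1bl1, Ifit2, Isg20, Oasl1, Oas1a, Ifit1 and Ifi35, beside Ifit3b and Oas3, which passed the filter only through naive libraries, with changes from -2.39 (Ifit1bl1) to -0.91 (Ifi35). Isg20, an exonuclease that degrades RNA, had 9.24, 11.5 and 9.59 TPM in naive cells, 0.168, 3.37 and 5.44 TPM at 6 h and 0.390, 0.368 and 0.316 TPM at 24 h. The 6 h libraries were far apart, and the 6 h call (-1.79 ± 0.56, adjusted p = 0.0183) ended without replicate 1 of that group (-1.06, adjusted p = 0.163), while the 24 h difference was -3.03 ± 0.56. Ifi35 had 12.9, 6.18 and 8.68 TPM in naive cells and 7.01, 4.11 and 2.56 TPM at 6 h, overlapping groups. At 24 h Ifi35 was the IFIT/OAS type gene not called (-0.52, adjusted p = 0.237). Ifit2, which binds AU-rich RNA, had 7.40, 4.22 and 7.05 TPM in naive cells, 0.813, 0.883 and 0.880 TPM at 6 h and 2.19, 2.40 and 2.52 TPM at 24 h (-1.07 ± 0.17), and the 24 h libraries were above the 6 h libraries and below the naive ones.

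Of the GBP/IRG type at 6 h, 4 of the 8 tested were lower, 1 was higher and 3 were not called (median -0.40), and at 24 h 2 were lower, 3 higher and 3 not called (median 0.23, against 0.25 for all genes). The lower genes at 6 h were Irgm2 (-1.07, limma, adjusted p = 0.000928), Gbp4 (-0.98, adjusted p = 0.00543), Tgtp1 and Irgm1. All 4 kept their call in every setting in which they were tested. At 24 h Tgtp1 and Irgm2 were lower, and the call for Irgm2 (-0.71, adjusted p = 0.0252) ended under 6 of 13 settings. Gbp3, a GTPase that binds vacuoles holding pathogens, had 53.0, 40.2 and 46.4 TPM in naive cells, 61.8, 57.5 and 55.4 TPM at 6 h and 70.6, 66.2 and 69.8 TPM at 24 h. It rose by 0.56 ± 0.17 at 24 h (adjusted p = 0.0151), and each 24 h library was above each naive library. Gbp2, of the same family, had 17.9, 15.3 and 16.4 TPM in naive cells, 29.3, 21.2 and 23.0 TPM at 6 h and 26.2, 25.9 and 25.6 TPM at 24 h, again without overlap (0.53 ± 0.20 and 0.62 ± 0.20). Irgm1, a regulator of the other immunity-related GTPases, fell from 36.6, 31.3 and 32.3 TPM to 25.2, 21.3 and 21.5 TPM at 6 h (-0.54 ± 0.15) and was above naive at 24 h with 53.0, 44.1 and 53.7 TPM (0.57 ± 0.15). The higher calls at 24 h for Gbp2, Gbp3 and Irgm1 ended after rescaling by median ratios (0.31, 0.24 and 0.26, adjusted p = 0.186, 0.500 and 0.145). Rescaling ended the 6 h call for Gbp2 as well (0.38, adjusted p = 0.0889). The calls for Gbp2 also ended on leaving out any 1 of 5 of the 6 libraries at either time, and that for Gbp3 on leaving out replicate 1 at 24 h or replicate 2 of the naive group.

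A near-identical copy, Tgtp2, makes the Tgtp1 values uncertain. Tgtp1 (chromosome 11) had 1.62, 1.83 and 2.55 TPM in naive cells and changed by -0.96 ± 0.24 at 6 h, while Tgtp2, which is not on the list and encodes the same kind of T cell-specific GTPase, had a mean of 12.8 TPM in naive cells. Their sum went from 13.9, 12.5 and 18.0 TPM to 3.78, 2.51 and 2.43 TPM at 6 h, a range well below the naive one. Igtp, which overlaps Irgm2 on the same strand, was listed at 0, 0 and 1.9 TPM in naive cells and 1.62, 0 and 2.38 TPM at 6 h and was called in none of the comparisons. Whether reads of overlapping or duplicated genes were split between them is not given in the sources used here.

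The interferon regulatory factors fell at both times. Irf1, induced by interferon gamma and itself a driver of GBP genes, had 107, 65.4 and 68.6 TPM in naive cells and 40.4, 30.6 and 32.2 TPM at 6 h (-1.17 ± 0.25, adjusted p = 0.000873). Irf7, the amplifier of type I interferon production, went from 12.2, 13.9 and 8.74 TPM to 2.52, 1.29 and 1.74 TPM (-2.15 ± 0.44), and to 0.724, 1.47 and 0.837 TPM at 24 h. Irf9, the DNA-binding part of the ISRE complex, went from 45.1, 35.8 and 36.4 TPM to 22.8, 16.8 and 14.6 TPM at 6 h (-1.09 ± 0.21). In each gene the naive and 6 h libraries did not overlap.

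In the remaining role groups, 3 of 4 tested sensors, 4 of 5 PARP, nuclear and restriction factors and 3 of 3 Schlafens were lower at 6 h. Sp100, a scaffold of nuclear bodies, had 160, 106 and 88.9 TPM in naive cells, 34.2, 29.3 and 32.4 TPM at 6 h (-1.81 ± 0.31) and 99.1, 106 and 129 TPM at 24 h (-0.05 ± 0.31, adjusted p = 0.923). Samhd1 went from 292, 170 and 154 TPM to 33.7, 29.3 and 32.0 TPM at 6 h (-2.60 ± 0.34) and to 63.3, 55.9 and 107 TPM at 24 h (-1.43 ± 0.34). Slfn5 had 16.3, 14.3 and 14.4 TPM in naive cells, 1.28, 1.16 and 1.2 TPM at 6 h (-2.85 ± 0.17) and 3.69, 3.27 and 5.76 TPM at 24 h (-1.64 ± 0.17). Both stayed below naive without overlap. Zbp1, the sensor of Z-form nucleic acids, had 24.9, 25.3 and 33.6 TPM in naive cells and 5.27, 6.16 and 3.74 TPM at 6 h (-2.27 ± 0.21). Ddx58, which encodes RIG-I, had 11.5, 12.1 and 11.6 TPM in naive cells and 1.73, 1.47 and 2.36 TPM at 6 h (-2.17 ± 0.25). Eif2ak2, the double-stranded RNA kinase, had 6.72, 5.87 and 6.29 TPM in naive cells and 3.74, 3.67 and 3.92 TPM at 6 h (-0.61, adjusted p = 0.0192), and Dhx58, a relative of RIG-I, was not called (-0.29, adjusted p = 0.466). Trim30a and Parp14 were lower at 6 h (-0.78 and -0.76) and not called at 24 h (-0.10 and 0.18). Slfn2 changed by -0.50 ± 0.13 at 6 h, from 424, 347 and 368 TPM to 272, 284 and 249 TPM.

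Over all role groups at 24 h, 23 of the 37 genes that pass on stimulated libraries alone were below naive and 4 above (Gbp2, Gbp3, Irgm1 and Parp9), where 26.8% of all genes were called (7.85% lower, 18.9% higher). Parp9, a partner of the E3 ligase gene Dtx3l with which it overlaps on opposite strands, had 3.68, 2.23 and 1.82 TPM in naive cells and 8.06, 5.24 and 7.52 TPM at 24 h (1.17 ± 0.27, adjusted p = 0.00248). With the 4 genes that passed only through naive libraries, 27 of 41 were below naive. Over these 41, rescaling left 29 lower and 1 higher, and it moved the median change of all genes by -0.24 and the share of higher calls among all called genes from 70.7% to 44.9%. With both libraries of low mitochondrial share left out, 23 were lower and 5 higher, again with Ifit3b and Rsad2 not tested.

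**Figure D2:**
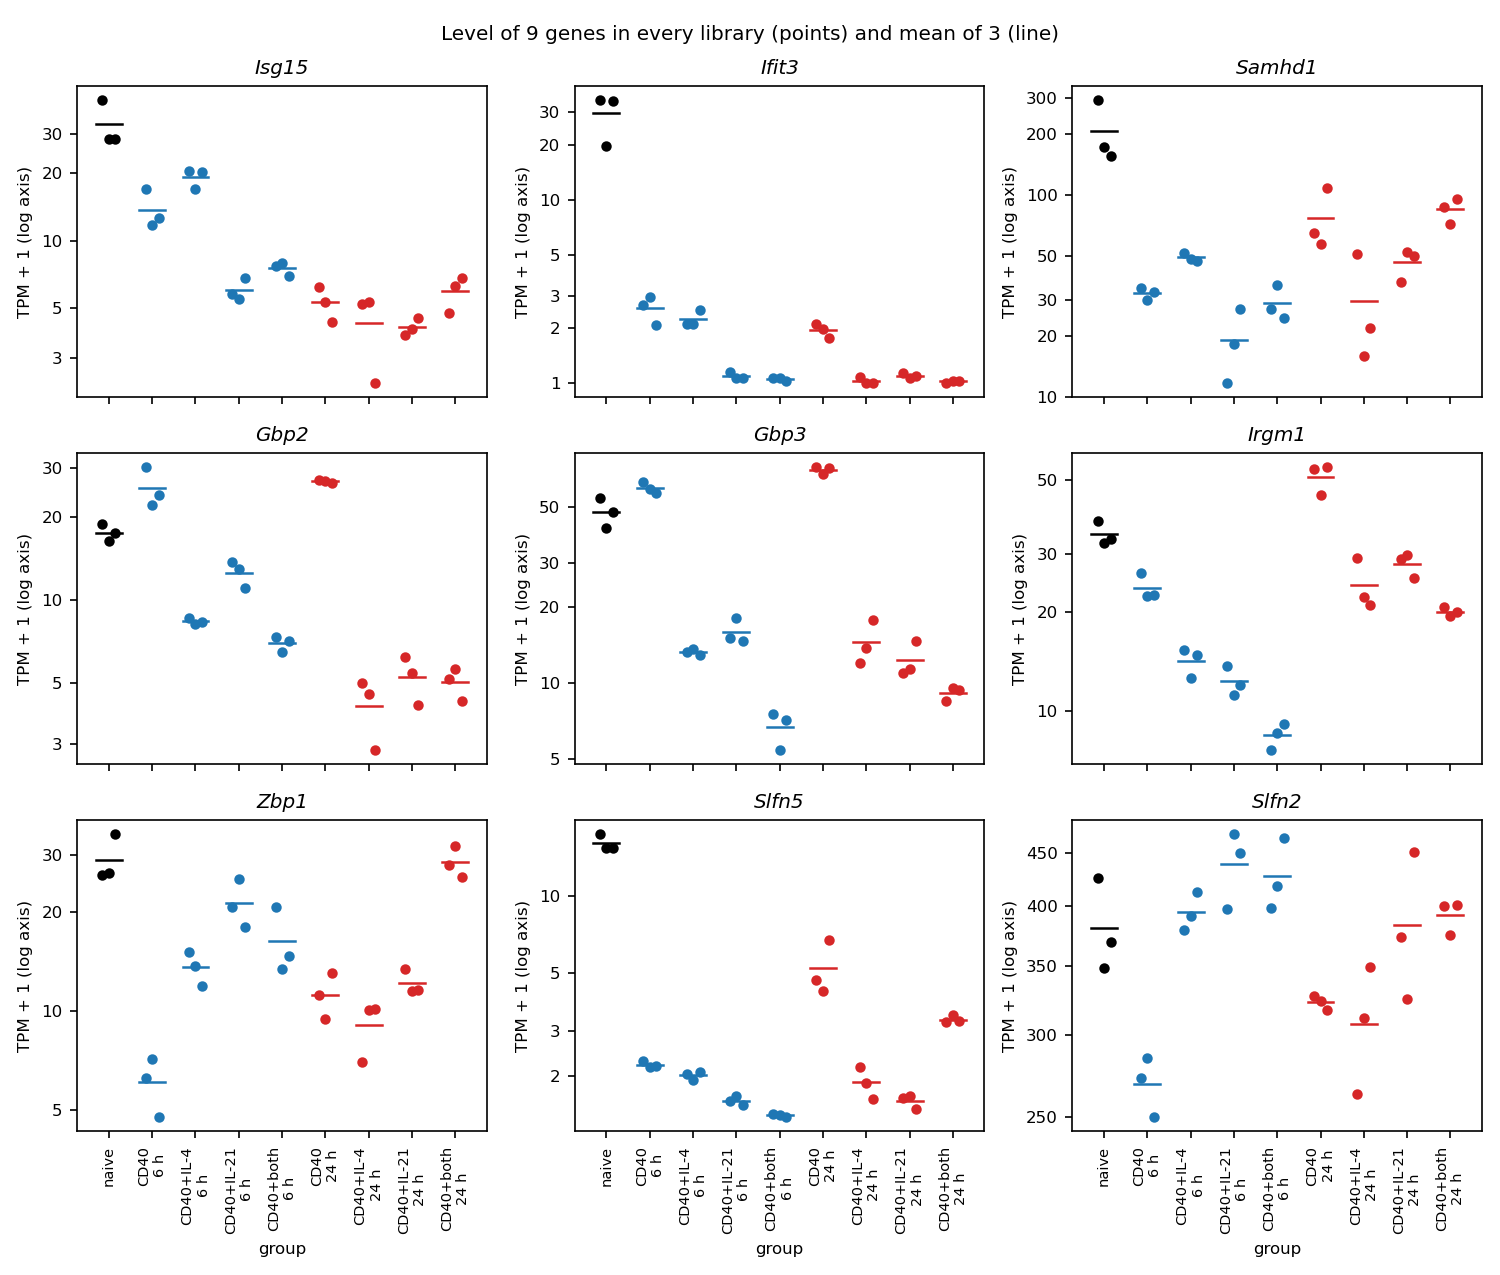
TPM + 1 on a log axis for 9 genes in the 9 groups, with a point per library and a line at the mean of 3. Ifit3, Isg15, Samhd1 and Slfn5 are highest in naive cells (black), Gbp2, Gbp3 and Irgm1 have their highest mean in the 24 h group with anti-CD40 alone (red), and Zbp1 is raised by IL-21 at 6 h (blue).

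IL-4 was compared with anti-CD40 alone at each time. At 6 h few genes of the list were called, and 3 of the 4 that fell were of the GBP/IRG type: 4 genes were lower and 2 higher of 41, where 4.04% of all genes were called (2.4% lower, 1.65% higher), and the median change of the list was -0.06 against 0.02 for all genes. Gbp3 had 12.3, 12.7 and 11.9 TPM with IL-4 against 61.8, 57.5 and 55.4 TPM without it, a fall by 2.15 on the log2 scale (SE 0.17, adjusted p = 1.04e-08). Gbp2 had 7.58, 7.16 and 7.31 TPM with IL-4 against 29.3, 21.2 and 23.0 TPM (-1.60 ± 0.20, adjusted p = 1.11e-05). Irgm1 had 14.3, 11.6 and 13.8 TPM with IL-4 against 25.2, 21.3 and 21.5 TPM (-0.73 ± 0.15). None of these 3 pairs of groups overlapped. Gbp4, by contrast, had 5.07, 5.38 and 4.77 TPM with IL-4 and 5.80, 5.07 and 6.02 TPM without it (-0.12 ± 0.26, adjusted p = 0.946). Without the 2 libraries of low mitochondrial share, which enter only the filter and the estimate of spread here, 4 were lower and 3 higher.

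IFIT/OAS type genes were mostly not called with IL-4 at 6 h (17 of 18). The 18 include Ifit3b, Oas3, Oasl2 and Rsad2, which reached 1 TPM in fewer than 3 stimulated libraries and had little room to fall. Isg15 had 19.5, 16.0 and 19.4 TPM with IL-4, a difference of 0.50 ± 0.26 from anti-CD40 alone (adjusted p = 0.493). The exception was Ifit1bl1, an IFIT1 relative, with 0.108, 0.211 and 0.266 TPM against 1.89, 1.37 and 1.57 TPM (-1.12 ± 0.17). Zbp1 rose, to 14.2, 12.7 and 10.9 TPM from 5.27, 6.16 and 3.74 TPM (1.18 ± 0.21, adjusted p = 0.000843). Slfn2 rose to 378, 390 and 412 TPM from 272, 284 and 249 TPM (0.55 ± 0.13, adjusted p = 0.00885), a call that ended after rescaling by median ratios (0.52, adjusted p = 0.271) or on leaving out replicate 3 of either group. In both genes each library with IL-4 was above each library without it.

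With IL-4 at 24 h, 18 genes were lower and 1 higher of 41. At that time 31.4% of all genes were called (23.1% lower, 8.28% higher), and the median was -0.50 for the list and -0.31 for all genes. Gbp2 had 3.97, 3.54 and 1.84 TPM with IL-4 against 26.2, 25.9 and 25.6 TPM (-2.75 ± 0.20, adjusted p = 1.35e-09), and Gbp3 had 11.0, 12.8 and 16.8 TPM against 70.6, 66.2 and 69.8 TPM (-2.29 ± 0.17). Irgm1 had 28.1, 21.1 and 20.0 TPM against 53.0, 44.1 and 53.7 TPM (-1.10 ± 0.15), and Gbp4 was lower as well (-1.32 ± 0.26). These changes lay far below the median of all genes. In contrast, Ifi47, another immunity-related GTPase, had 52.1, 58.2 and 81.0 TPM with IL-4 and 55.9, 59.0 and 58.9 TPM without it (0.11 ± 0.16, adjusted p = 0.646).

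Outside the GBP/IRG type, the falls with IL-4 at 24 h included 4 of 5 PARP, nuclear and restriction factors, 2 of 3 interferon regulatory factors and 2 of 3 Schlafens. Sp100 had 69.5, 31.4 and 21.8 TPM with IL-4 against 99.1, 106 and 129 TPM (-1.58 ± 0.31). Samhd1 had 50.0, 15.0 and 21.0 TPM against 63.3, 55.9 and 107 TPM (-1.49 ± 0.34), and Irf1 had 24.6, 13.4 and 10.3 TPM against 37.8, 30 and 48.6 TPM (-1.28 ± 0.25). In all 3 genes the high library of the IL-4 group was replicate 1, the library of low mitochondrial share. Slfn5 had 1.18, 0.877 and 0.629 TPM against 3.69, 3.27 and 5.76 TPM (-1.45 ± 0.17). Oasl1 (-1.37 ± 0.34), Ifit3 (-0.92 ± 0.19), Xaf1 (-0.90 ± 0.28) and Rtp4 (-0.78 ± 0.30) were the 4 IFIT/OAS type genes called. Rescaling ended the calls for Xaf1 (-0.53, adjusted p = 0.114) and Rtp4 (-0.59, adjusted p = 0.0997), and Rtp4 lost its call under 10 of 13 settings. The single rise, of Tgtp1 (0.96 ± 0.24), was not seen in the sum of Tgtp1 and Tgtp2, which was 2.49 ± 0.828 TPM with IL-4 and 2.29 ± 0.330 TPM without it (SD, n = 3).

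How the spread was estimated mattered for IL-4 at 24 h. When only the compared groups entered the fit, 10 genes were called instead of 19, of which 7 were among the 19. Sp100, Samhd1, Irf1, Irf9, Ddx58, Gbp4 and Parp14 were among those lost, while Gbp2, Gbp3, Irgm1, Ifit3, Oasl1, Trim30a and Slfn5 were still called. Rescaling gave 16 lower and 2 higher, and it moved the all-gene median by 0.29 and the share of higher calls among all called genes from 26.4% to 52.4%. The counts were 20 lower and 1 higher without the 2 libraries of low mitochondrial share.

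**Figure D3:**
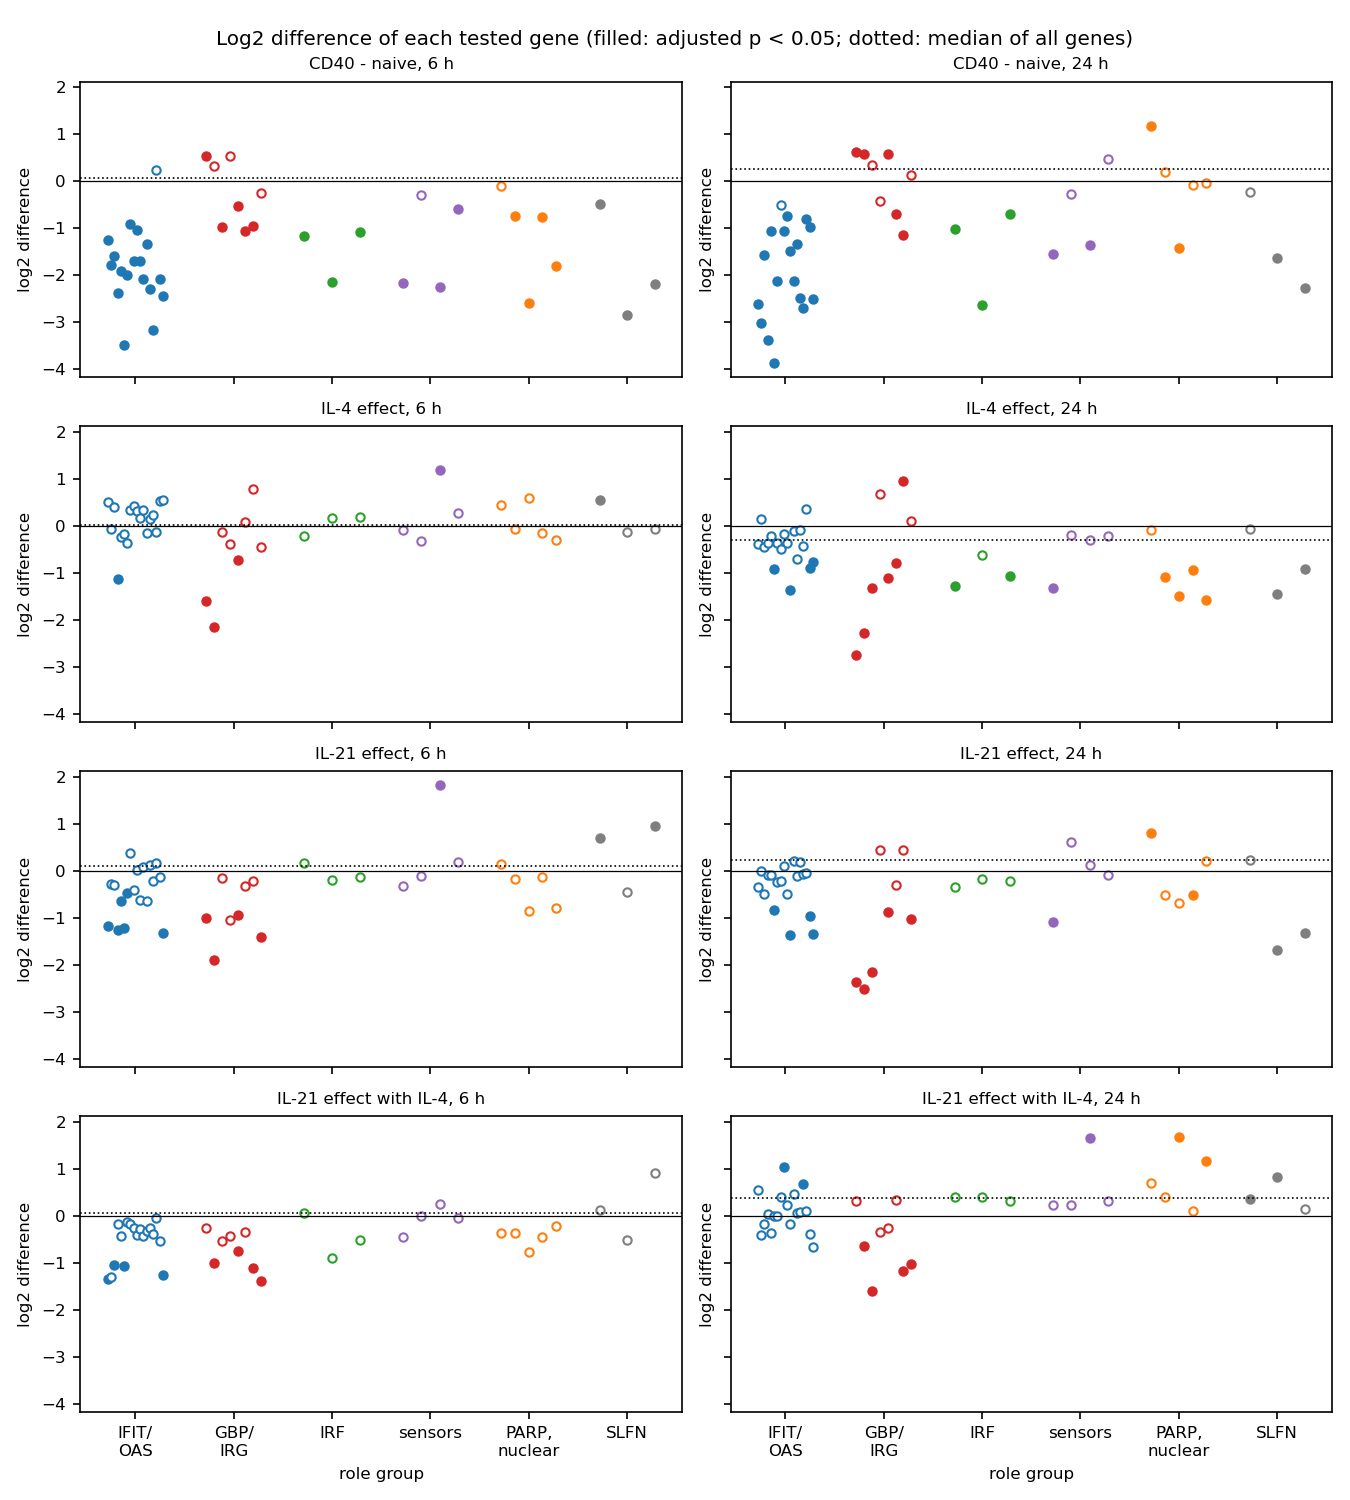
Log2 difference of each tested gene in 8 comparisons, by role group. Filled points were called at an adjusted p below 0.05, and the dotted line is the median of all tested genes. Most IFIT/OAS type genes lie far below 0 against naive cells, though Bst2 does not at 6 h. Those shown include Ifit3b, Oas3, Oasl2 and Rsad2, which were tested only through their naive level. GBP/IRG type genes have a median of -0.95 both with IL-4 and with IL-21 at 24 h.

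The effect of IL-21 was measured against anti-CD40 alone, the same control libraries as for IL-4, so both effects share their controls and are given side by side without a comparison between them. At 6 h, 10 of 41 genes were lower and 3 higher with IL-21, where 12.1% of all genes were called (4.68% lower, 7.43% higher), and the median change was -0.28 for the list against 0.10 for all genes. The falls were in 6 of 18 IFIT/OAS type and 4 of 8 GBP/IRG type genes, and all 3 rises were in other groups. Without the 2 libraries of low mitochondrial share, 12 were lower and 3 higher. Those libraries are in other groups and enter only the filter and the estimate of spread.

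Among GBP/IRG type genes at 6 h, Gbp3 had 14.1, 17.1 and 13.7 TPM with IL-21 against 61.8, 57.5 and 55.4 TPM (-1.9 ± 0.17, adjusted p = 3.94e-08). Ifi47 had 15.9, 17.2 and 15.2 TPM against 50.3, 43.6 and 39.2 TPM (-1.40 ± 0.16), and Gbp2 had 12.7, 11.9 and 10 TPM against 29.3, 21.2 and 23.0 TPM (-1.02 ± 0.20). Irgm1 fell by 0.94 on the log2 scale (SE 0.15), to 12.7, 10.2 and 11.0 TPM. No library with IL-21 reached the range without it in these 4 genes. Gbp4 was not called at this time (-0.15 ± 0.26, adjusted p = 0.803).

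The IFIT/OAS type genes that fell with IL-21 at 6 h were Rtp4, Ifit1bl1, Ifit3, Isg15, Ifit2 and Ifit3b. Isg15 had 4.78, 4.53 and 5.84 TPM against 16.1, 10.7 and 11.6 TPM (-1.18 ± 0.26, adjusted p = 0.00381). Ifit3 had 0.148, 0.0664 and 0.0596 TPM against 1.66, 1.94 and 1.07 TPM (-1.21 ± 0.19), and Rtp4 was listed at 0.833, 0 and 0 TPM against 2.54, 1.78 and 1.89 TPM (-1.32 ± 0.30). On the log2(TPM + 1) scale such changes of low genes are understated: with a pseudocount of 0.1 the difference of Ifit3 was -3.10. Ifit3b, a near copy of Ifit3, lost its call with the replicate number as a block (-0.47). Rsad2 was not called (0.12 ± 0.16), nor were Oas1a, Oas3, Oasl1, Oasl2 and Mx1. Of these, Rsad2, Oas3 and Oasl2 passed the filter only through naive libraries, so they had little room to fall here.

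The 3 rises with IL-21 at 6 h were in Zbp1, Slfn2 and Slfn8. Zbp1 had 19.8, 24.3 and 17.0 TPM against 5.27, 6.16 and 3.74 TPM (1.83 ± 0.21, adjusted p = 2.51e-06), below the naive range of 24.9 to 33.6 TPM. Slfn2 had 396, 468 and 449 TPM against 272, 284 and 249 TPM (0.70 ± 0.13, adjusted p = 0.000509), its highest group mean, though the call ended after rescaling (0.60, adjusted p = 0.0911). Slfn8 had 3.64, 4 and 5.52 TPM against 0.887, 2.75 and 1.97 TPM (0.95 ± 0.31, adjusted p = 0.0481), and lost its call under 10 of the settings tried, the replicate block included. The 8 T cell markers summed to 5.51 to 6.93 TPM with IL-21 against 1.81 to 3.87 TPM without it at 6 h, and to 9.29 to 13.1 TPM against 2.06 to 2.61 TPM at 24 h, where Cd8a was listed at 0 without IL-21. The 8 B cell markers summed to 570 to 973 TPM with IL-21 and 1609 to 2985 TPM without it at 6 h, and to 2405 to 3422 TPM and 4622 to 5477 TPM at 24 h. The part of these changes in the results was not tested.

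After 24 h with IL-21, 13 of 41 genes were lower and 1 higher (Parp9), where 24.2% of all genes were called (6.33% lower, 17.8% higher) and the all-gene median was 0.23 against -0.24 for the list. Of the 8 GBP/IRG type genes tested, 5 were lower. Gbp3 had 9.94, 10.4 and 13.6 TPM against 70.6, 66.2 and 69.8 TPM (-2.52 ± 0.17, adjusted p = 2.39e-10), and Gbp2 had 5.17, 4.43 and 3.15 TPM against 26.2, 25.9 and 25.6 TPM (-2.38 ± 0.20). Gbp4 had 2.42, 2.48 and 3.39 TPM against 15.6, 12.7 and 19.1 TPM (-2.15 ± 0.26). Gbp4 overlaps Gbp8 and Gbp9 on the same strand, so its value may hold reads of these genes. Ifi47 (-1.02 ± 0.16) and Irgm1 (-0.87 ± 0.15) were lower too, at 23.9, 27.9 and 32.8 TPM and at 27.8, 28.8 and 24.2 TPM, while Irgm2 was not called (-0.30 ± 0.23).

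Of the IFIT/OAS type, 4 of 18 were lower with IL-21 at 24 h: Oasl1 (-1.37 ± 0.34), Rtp4 (-1.34 ± 0.30), Xaf1 (-0.97 ± 0.28) and Ifit3 (-0.83 ± 0.19). Isg15, which had fallen without IL-21 by then, stood at 2.81, 3.06 and 3.51 TPM with IL-21 and 5.25, 4.36 and 3.35 TPM without it, overlapping groups (-0.35 ± 0.26, adjusted p = 0.352). Slfn5 was lower, with 0.639, 0.673 and 0.489 TPM against 3.69, 3.27 and 5.76 TPM (-1.68 ± 0.17), and so were Slfn8 (-1.32 ± 0.31), Ddx58 (-1.08 ± 0.25) and Trim30a (-0.51 ± 0.14), a regulator of toll-like receptor signalling. Slfn8 was listed at 0 in 2 of the 3 libraries with IL-21 and at 0.120 TPM in the other. Parp9 rose to 13.2, 12.7 and 12.0 TPM from 8.06, 5.24 and 7.52 TPM (0.80 ± 0.27, adjusted p = 0.0324), a call that ended after rescaling (0.56, adjusted p = 0.0724) and on leaving out any 1 of 4 libraries, replicate 2 without IL-21 or any of the 3 with it. Rescaling gave 19 lower and 0 higher, and it moved the all-gene median by -0.21 and the share of higher calls among all called genes from 73.8% to 57%. With both libraries of low mitochondrial share left out, 17 were lower and 1 higher.

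In cells that also received IL-4, 8 of 41 genes were lower and 0 higher with IL-21 at 6 h (limma), where 2.54% of all genes were called (1.28% lower, 1.25% higher). At an unadjusted p below 0.05, 16 genes of the list were lower and 1 was higher, where 4.9% of all genes were lower and 5.08% higher by the same measure. The median change was -0.41 for the list and 0.06 for all genes, and without the 2 libraries of low mitochondrial share 9 were lower and 0 higher. The 8 were Isg15, Ifit1, Ifit3 and Rtp4 of the IFIT/OAS type and Gbp3, Irgm1, Tgtp1 and Ifi47 of the GBP/IRG type. Ifi47 had 12.1, 11.2 and 11.6 TPM with IL-21 added, against 33.7, 31.1 and 31.0 TPM with IL-4 (-1.38 ± 0.16, adjusted p = 7.03e-06). Isg15 had 6.76, 7 and 5.98 TPM against 19.5, 16.0 and 19.4 TPM (-1.35 ± 0.26). Gbp3, already low with IL-4, went from 12.3, 12.7 and 11.9 TPM to 6.55, 4.44 and 6.19 TPM (-1.0 ± 0.17), its lowest group. The groups did not overlap in any of these 3 genes. The sum of Tgtp1 and Tgtp2 went from 2.84, 2.34 and 1.39 TPM to 0.760, 0.677 and 0.615 TPM. The T cell markers summed to 2.67 to 4.37 TPM with IL-21 added, against 1.36 to 1.92 TPM with IL-4 at 6 h, and to 4.49 to 6.96 TPM against 0.873 to 2.11 TPM at 24 h, and their part in these results was not tested.

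At 24 h, 7 genes were higher and 4 lower with IL-21 in cells that also received IL-4, where 24.2% of all genes were called (21.8% higher, 2.39% lower). The list had a median of 0.22 and all genes one of 0.38, and its share of higher calls was no greater than that of all genes. The 4 lower genes were all of the GBP/IRG type. Ifi47 had 32.8, 32.5 and 25.9 TPM with IL-21 added, against 52.1, 58.2 and 81.0 TPM with IL-4 (-1.03 ± 0.16, adjusted p = 9.62e-05). Gbp4 had 0.786, 1.55 and 1.28 TPM against 9.31, 5.72 and 3.21 TPM (-1.61 ± 0.26), and Gbp3 had 7.52, 8.55 and 8.37 TPM against 11.0, 12.8 and 16.8 TPM (-0.65 ± 0.17). Tgtp1 was the other (-1.18 ± 0.24), with a sum of Tgtp1 and Tgtp2 of 0.914 ± 0.113 TPM against 2.49 ± 0.828 TPM (SD, n = 3). Gbp2 was not called, with 4.16, 4.61 and 3.27 TPM against 3.97, 3.54 and 1.84 TPM (0.32 ± 0.20, adjusted p = 0.249).

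The rises at 24 h with both cytokines were led by Samhd1 and Zbp1. Zbp1 had 26.9, 31.0 and 24.6 TPM against 6.01, 9.06 and 9.17 TPM with IL-4 (1.66 ± 0.21, adjusted p = 5.79e-06), a range that overlapped that of naive cells. Samhd1 had 86.1, 70.6 and 94.2 TPM against 50.0, 15.0 and 21.0 TPM (1.68 ± 0.34), and Sp100 had 77.1, 88.3 and 82.5 TPM against 69.5, 31.4 and 21.8 TPM (1.16 ± 0.31). In all 3 genes the groups did not overlap. Oas1a (1.03 ± 0.26), an oligoadenylate synthetase, Slfn5 (0.82 ± 0.17), Cmpk2 (0.68 ± 0.20) and Slfn2 (0.36 ± 0.13) were the others, and Slfn2 changed sign after rescaling by median ratios (-0.20, adjusted p = 0.580). With only the 2 compared groups in the fit, 1 gene (Zbp1) was called, and without replicate 3 of the IL-4 group 7 were (4 higher, 3 lower). The counts were 13 higher and 4 lower without the 2 libraries of low mitochondrial share. Rescaling gave 6 higher and 9 lower, and it moved the all-gene median by -0.38 and the share of higher calls among all called genes from 90.1% to 49.6%.

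Whether the effect of IL-21 differed with and without IL-4 was tested as an interaction, given as the effect with IL-4 minus the effect without it. At 6 h it was called for 2 of 41 genes, where 0.412% of all genes were called. Zbp1, raised by IL-21 without IL-4, was at 19.8, 12.5 and 13.7 TPM with both cytokines and 14.2, 12.7 and 10.9 TPM with IL-4 (interaction -1.58 ± 0.30, adjusted p = 0.0166). Ifit1bl1 had an interaction of 1.10 ± 0.24 (adjusted p = 0.0484) that rests on levels of at most 0.266 TPM with IL-4. Rescaling ended both calls. The call for Ifit1bl1 ended on leaving out any 1 of the 12 libraries, and that for Zbp1 on leaving out any 1 of 4 (anti-CD40 replicate 3, IL-21 replicate 2, or replicate 2 or 3 with both cytokines). With both libraries of low mitochondrial share left out, 3 genes were called.

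At 24 h the interaction was called for 7 of 41 genes, where 5.8% of all genes were called (3.33% positive). Of the 7, 6 were positive (Gbp2, Gbp3, Slfn5, Samhd1, Zbp1 and Ddx58) and 1 was negative (Tgtp1). The median interaction was 0.61 for the list and 0.19 for all genes. Gbp2 had an interaction of 2.69 ± 0.28 (adjusted p = 3.11e-06), with an IL-21 effect of -2.38 without IL-4 and 0.32 with IL-4, where its level without IL-21 was 1.84 to 3.97 TPM. Slfn5 was lower with IL-21 in the absence of IL-4 (-1.68) and higher in its presence (0.82), an interaction of 2.50 ± 0.24 (adjusted p = 9.08e-07). Samhd1 was at 35.9, 50.8 and 48.8 TPM with IL-21 and at 86.1, 70.6 and 94.2 TPM with both cytokines (interaction 2.36 ± 0.49, adjusted p = 0.00436). These 3, Gbp3 (1.87 ± 0.24), Zbp1 (1.54 ± 0.30) and Tgtp1 (-1.62 ± 0.34) kept their call under every setting in which they were tested, and Ddx58 (1.31 ± 0.35) lost it under 10 of 19. The Tgtp1 values are uncertain because of Tgtp2, and the interaction was not tested on their sum. The sum had means of 2.29 TPM with anti-CD40 alone, 2.49 TPM with IL-4, 2.12 TPM with IL-21 and 0.914 TPM with both. Leaving out replicate 1 of the anti-CD40 and IL-4 group raised the number of called genes to 17, and leaving out both libraries of low mitochondrial share raised it to 20 (19 positive). Rescaling gave 9 positive and 1 negative, moved the all-gene median by -0.21 and took the share of positive calls among all called genes from 57.3% to 44.4%.

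**Figure D4:**
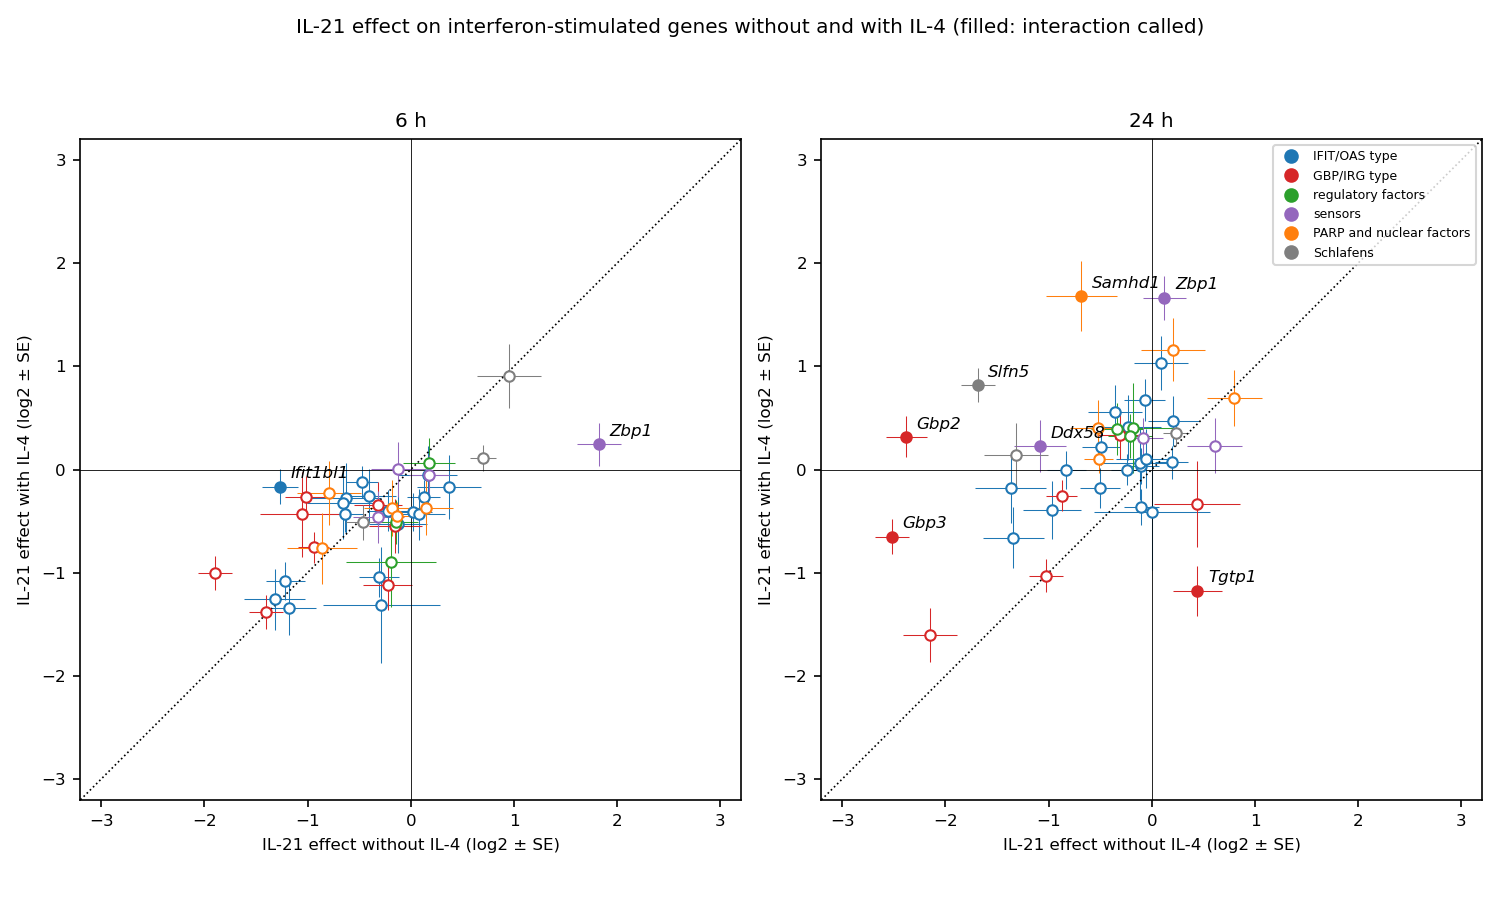
Effect of IL-21 on each tested gene without IL-4 (x axis) and with IL-4 (y axis), as log2 differences ± standard error, at 6 h and 24 h. Filled points had a called interaction. At 24 h Gbp2, Gbp3, Slfn5, Samhd1, Ddx58 and Zbp1 lie above the dotted line of equal effects and Tgtp1 lies below it, while Zbp1 lies below it at 6 h.

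A further contrast set the IL-21 effect at 24 h against that at 6 h. Without IL-4 it was called for 6 genes, where 4.44% of all genes were called (3.1% higher at 24 h, 1.34% lower). The effect was lower at 24 h than at 6 h for Slfn8 (-2.27 ± 0.44), Gbp4 (-2.0 ± 0.37), Zbp1 (-1.70 ± 0.30), Gbp2 (-1.36 ± 0.28) and Slfn5 (-1.22 ± 0.24), and higher for Ifit1bl1 (1.17 ± 0.24). Zbp1 shows this by level: at 24 h it had 12.4, 10.5 and 10.6 TPM with IL-21 and 10.2, 8.43 and 12.0 TPM without it, overlapping groups. For Ifit1bl1 the IL-21 effect was -1.27 at 6 h and was not called at 24 h. By then its difference from naive with anti-CD40 alone was -3.39, so little room was left for a fall. With IL-4 the change was called for 7 genes, where 4.24% of all genes were called (3.66% higher at 24 h), and was positive in each: Samhd1 (2.44 ± 0.49), Isg15 (1.9 ± 0.37), Zbp1 (1.42 ± 0.30), Slfn5 (1.33 ± 0.24), Oas1a (1.28 ± 0.37), Ifit3 (1.08 ± 0.26) and Cmpk2 (1.07 ± 0.29). The call for Oas1a (adjusted p = 0.0498) ended under 14 of 19 settings, that for Cmpk2 (adjusted p = 0.0335) under 12 and that for Ifit3 (adjusted p = 0.0209) under 6. For Ifit3 the IL-21 effect with IL-4 was -1.08 at 6 h and was not called at 24 h. Its mean with both cytokines at 24 h was 0.0206 TPM, its lowest group. Whether low levels at 24 h limited the effect there was not tested. The median was 0.58 for the list and 0.33 for all genes, and rescaling, which moved the latter by -0.33, gave 7 positive and 1 negative call (86.4% of all called genes were positive before it and 61.8% after). For the 7 calls with IL-4, leaving out replicate 1 of the 24 h anti-CD40 and IL-4 group gave 17, and leaving out any 1 of 4 other libraries gave 4 (replicate 2 of that group, replicate 3 of the 6 h anti-CD40 and IL-4 group, or replicate 3 at 6 h or 2 at 24 h with both cytokines). With those of low mitochondrial share left out, 7 were called in the cells without IL-4 and 17 in those with it.

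The levels across the 9 groups can be read gene by gene. Gbp3 stood in the order 68.9 (24 h, anti-CD40), 58.2 (6 h, anti-CD40), 46.5 (naive), 15.0 (6 h, IL-21), 13.5 (24 h, IL-4), 12.3 (6 h, IL-4), 11.3 (24 h, IL-21), 8.15 (24 h, both) and 5.72 TPM (6 h, both). The 3 groups without a cytokine did not overlap the 6 groups with one, and those 3 did not overlap each other. Between 15.0 and 11.3 TPM each group overlapped its neighbour in the order, and the 2 lowest groups overlapped no other. Ifi47 stood at 63.8 (24 h, IL-4), 57.9 (24 h, anti-CD40), 53.6 (naive), 44.4 (6 h, anti-CD40), 31.9 (6 h, IL-4), 30.4 (24 h, both), 28.2 (24 h, IL-21), 16.1 (6 h, IL-21) and 11.6 TPM (6 h, both). Neighbours overlapped except between 44.4 and 31.9 TPM, between 28.2 and 16.1 TPM and between 16.1 and 11.6 TPM. The group means with IL-21 were below those without it at the same time and IL-4 state in both genes. Bst2, at 29.7 to 75.1 TPM, was called in none of the cytokine comparisons.

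Genes of the interferon pathway outside the list were counted as well, 28 in all, of which 27 were matched and 23 tested. Ligand transcripts were near the floor: Ifna4 was listed at 0 in every library, Ifnb1 in every library but 1 (0.598 TPM, 6 h with IL-21), and Ifng had 0.506, 0.866 and 0.865 TPM in naive cells and at most 0.891 TPM elsewhere. Against naive cells, 2 of the 23 were higher and 4 lower at 6 h, and 4 higher and 1 lower at 24 h, shares no greater than the 29.9% and 26.8% of all genes called. Stat2, a transcription factor of the type I response, was lower at 6 h (8.99 against 21.6 TPM, -1.15 ± 0.29) and not called at 24 h.

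With IL-4, 2 of the 23 were higher and 0 lower at 6 h, and 1 higher and 11 lower at 24 h (4.04% and 31.4% of all genes were called). With IL-21, 3 were higher and 3 lower at 6 h, and 5 higher and 3 lower at 24 h (12.1% and 24.2% of all genes). When IL-4 was present, IL-21 gave 2 higher and 2 lower at 6 h, and 10 higher and 1 lower at 24 h (2.54% and 24.2% of all genes, with 21.8% higher at 24 h). Socs1, a feedback inhibitor of JAK kinases that restrains interferon signalling, rose with IL-4 from 1.5, 1.04 and 1.26 TPM to 42.1, 31.4 and 32.1 TPM at 6 h (3.99 ± 0.32, adjusted p = 1.35e-08) and from 1.46 to 22.4 TPM at 24 h (3.08 ± 0.32). It rose with IL-21 to 11.9, 9.35 and 8.98 TPM at 6 h (2.28 ± 0.32) and to 13.3 TPM at 24 h (2.53 ± 0.32). With both cytokines at 24 h it was at 100.1, 101 and 91.7 TPM, above all other groups. Ifngr1, a chain of the interferon gamma receptor, fell with IL-4 at 24 h from 4.40 to 0.540 TPM (-1.84 ± 0.37), and Irf2, which competes with IRF1 for its sites, from 54.3 to 16.1 TPM (-1.97 ± 0.33). Whether these changes bear on the list was not tested.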

How the data were processed

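Polyadenylated RNA from 27 libraries was quantified by the authors with Salmon 1.9.0 on GRCm38/mm10, per the submitters' processing notes. The deposited values are gene-level TPM, and how transcripts were summed to genes, the annotation and the strand setting are not given in the sources used here. TPM keeps no depth, so depth is unknown and no counting interval was formed. Symbols and positions came from GENCODE M21 (35254 of 35604 IDs matched) and promoters from RefSeq. Genes at 1 TPM or more in at least 3 libraries (12147) were fitted with limma 3.58.1 (R 4.3.3) on log2(TPM + 1), with one mean per group over all 27 libraries and 18 residual degrees of freedom, moderated variances and Benjamini-Hochberg adjustment over all genes tested. The fit was tested on simulated data. Alternatives changed the pseudocount to 0.1, rescaled libraries by median ratios, dropped the low-value filter or raised it to 5 TPM, fitted only the compared groups, added the replicate number as a block, or left out each library in turn. Leaving out the 2 libraries of low mitochondrial share was chosen after seeing the data. Values by library were to be given for called genes with the largest changes, up to 6 per direction whose higher group reached 5 TPM, and further genes were added after their values were seen. The members and lists were chosen with earlier results of these data known. Same-numbered libraries deviated together (every correlation above 0.1) in the 6 h comparisons of IL-21, of IL-21 with IL-4 and of IL-4, with correlations of 0.107 to 0.382, and in no other comparison. All columns of the table belong to samples of the series, with 0 left unused. The result for 1 gene of the pathway list is not reported here.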

Additional observations from a re-analysis of the deposited data

Results flagged for a closer look

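For 22 gene-by-contrast results, the test of a difference between 2 effects of IL-21 passed the threshold (limma, adjusted p below 0.05). No outlier test was run, since every group held 3 libraries. The effect of IL-21 with IL-4 minus that without IL-4 differed from 0 at 6 h for Ifit1bl1 (1.10 ± 0.24, adjusted p = 0.0484) and Zbp1 (-1.58 ± 0.30, adjusted p = 0.0166). At 24 h it did so for Gbp2 (2.69 ± 0.28), Gbp3 (1.87 ± 0.24), Tgtp1 (-1.62 ± 0.34), Ddx58 (1.31 ± 0.35), Zbp1 (1.54 ± 0.30), Samhd1 (2.36 ± 0.49) and Slfn5 (2.50 ± 0.24), with adjusted p from 9.08e-07 (Slfn5) to 0.0266 (Ddx58).

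The effect of IL-21 at 24 h minus that at 6 h differed from 0 without IL-4 for Ifit1bl1 (1.17 ± 0.24), Gbp2 (-1.36 ± 0.28), Gbp4 (-2.0 ± 0.37), Zbp1 (-1.70 ± 0.30), Slfn5 (-1.22 ± 0.24) and Slfn8 (-2.27 ± 0.44). With IL-4 it did so for Isg15 (1.9 ± 0.37), Ifit3 (1.08 ± 0.26), Oas1a (1.28 ± 0.37), Cmpk2 (1.07 ± 0.29), Zbp1 (1.42 ± 0.30), Samhd1 (2.44 ± 0.49) and Slfn5 (1.33 ± 0.24). Of these 22 results, Zbp1 accounted for 4 and Slfn5 for 3. For Zbp1 the sign was opposite at 6 h and 24 h in the IL-4 contrast, and opposite without and with IL-4 in the time contrast.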

How the results depend on the processing

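Of 159 called changes of the listed genes, 100 kept their call and direction in every setting in which they were tested. The call was lost in at least 1 setting for 59, and 1 changed sign: Slfn2 with IL-21 and IL-4 at 24 h, at -0.20 after rescaling. Fitting only the compared groups ended 41 calls, rescaling 13 (the sign change included), and a pseudocount of 0.1, which also enlarges log2 changes of low genes, 13. That fit of only the compared groups gave 5 and 1 calls for IL-21 with IL-4 at 6 h and 24 h, 10 for IL-4 at 24 h, 4 for the time contrast with IL-4 and 1 for the interaction at 6 h. The 6 h interaction had 1 call with a pseudocount of 0.1 or a filter at 5 TPM, 0 after rescaling (2 before) and 3 without a filter or without the libraries of low mitochondrial share. Leaving those libraries out gave 17 calls for IL-21 with IL-4 at 24 h, 20 for the interaction at 24 h and 17 for the time contrast with IL-4.

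Leaving out each library in turn gave 29 to 32 calls against naive cells at 6 h and 26 to 29 at 24 h, 10 to 12 for IL-21 at 6 h and 13 to 15 at 24 h, 6 to 8 for IL-21 with IL-4 at 6 h and 7 to 16 at 24 h, and 5 to 6 for IL-4 at 6 h and 15 to 19 at 24 h. It gave 0 to 1 and 6 to 17 for the interaction at 6 h and 24 h, and 6 to 7 and 4 to 17 for the time contrast without and with IL-4. Each of these fits had fewer samples, and the filter was applied again each time. Leaving out any naive library took Ifit3b and Rsad2 out of testing. Other causes of these changes were not tested. Counts against naive cells here were not limited to genes that pass on stimulated libraries alone. With the replicate number as a block, the counts against naive cells were 35 and 31, for IL-21 11 and 14, for IL-21 with IL-4 8 and 12, for IL-4 6 and 19, for the interaction 2 and 7 (each at 6 h and 24 h), and for the time contrast 6 and 8. The block ended 2 calls (Ifit3b and Slfn8 with IL-21 at 6 h) and no other, and 23 of the 27 libraries correlated best with libraries of their own number.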
